A study of Arabidopsis thaliana with 8 samples.

Results

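AT5G47980 and AT5G47950 are acyltransferase genes of the BAHD family, and both belong to the extended gene cluster of Arabidopsis thaliana that makes the root triterpene thalianol, on chromosome 5. They were chosen by locus, with results of these arrays known, and each was kept only if the array annotation gave a probe set to it alone. Each gene had 1 such probe set. They are 2 of the 13350 genes that a probe set named alone, on an array of 22810 probe sets. Their values on all arrays are given below as a description, with no test, because they were part of the choice.

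Total RNA of whole 7-day-old seedlings without treatment was measured on 8 arrays, in 4 groups of 2. The groups were a gibberellin-deficient line in the Ler background (stock N3106), a de-etiolated line made in Col (stock N6159), and the wild types Ws (stock N2360) and Ler (stock NW20). The gibberellin-deficient line carries a leaky allele. The labels do not say which gene is mutated in either line, and wild-type Col seedlings were not analysed here. For the de-etiolated mutant, the mutation and the Col accession therefore cannot be told apart. The gibberellin-deficient line is set below against Ler, the wild type of its own background, and the other comparisons are those of the de-etiolated mutant with Ws and with Ler, and of Ws with Ler. The comparisons against Ler share the Ler arrays.

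Plants keep some biosynthetic pathways as clusters of neighbouring genes. In the thalianol cluster, an oxidosqualene cyclase (THAS1) folds oxidosqualene into the triterpene thalianol, cytochromes P450 (CYP708A2 and CYP705A5) oxidise it, and BAHD acyltransferases, which move an acyl group from a coenzyme A thioester onto a hydroxyl group, decorate the oxidised products. The cluster is known for its expression in roots, and its products for shaping the bacteria that live on roots. Gibberellins are hormones that promote elongation growth and germination. THAS1, CYP708A2 and CYP705A5 had no probe set of their own in the annotation and were not analysed here.

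The median signal was 34.9 to 38.4 on the 8 arrays, and log2 signals of arrays of the same group correlated across probe sets at 0.965 to 0.971, against 0.935 to 0.963 for arrays of different groups. Of the root markers listed for a check of the tissue, 2 of 17 were measured, the root hair expansins EXPA7 and EXPA18, and of the shoot markers 1 of 8, the Rubisco activase gene RCA. The summed signal of EXPA7 and EXPA18 was 426 and 357 in the gibberellin-deficient line, 277 and 331 in de-etiolated mutant seedlings, 383 and 271 in Ws, and 333 and 332 in Ler. RCA had a signal of 1255 and 1158 in the gibberellin-deficient line, 473 and 1061 in de-etiolated mutant seedlings, 1167 and 946 in Ws, and 961 and 913 in Ler. EXPA7, EXPA18 and RCA each lay above the median signal of every array. Of 19 genes named as root hair specific, looked up in the gene table after the annotation was read, none had a probe set of its own.

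AT5G47980 was high in the Ler background and low in the others. Its signal was 662 and 606 in the gibberellin-deficient line, 32.7 and 27.0 in de-etiolated mutant seedlings, 29.8 and 22.9 in Ws, and 253 and 297 in Ler. All 4 arrays of the Ler background lay above all 4 arrays of the other backgrounds, with no overlap. Within the Ler background, both arrays of the gibberellin-deficient line lay above both Ler arrays.

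The mean signal of AT5G47980 was 634 ± 39.4 in the gibberellin-deficient line, 29.8 ± 4.05 in the de-etiolated mutant, 26.4 ± 4.86 in Ws and 275 ± 30.9 in Ler (SD, n = 2 each). The gibberellin-deficient line had 2.31 times the mean signal of Ler, a log2 difference of 1.20 (limma standard error, SE, 0.18). Log2 differences were computed on log2(signal + 2.96), which understates the difference of dim genes. Ws was below Ler by a log2 difference of -3.25 (SE 0.18), so that the mean signal of Ler was 10.4 times that of Ws. The de-etiolated mutant was below Ler by a similar amount, with a log2 difference of -3.09 (SE 0.18) and a mean signal in Ler 9.22 times its own. The arrays of the de-etiolated mutant and Ws overlapped, and their log2 difference was 0.16 (SE 0.18). In order of level, the gibberellin-deficient line stood above Ler, Ler above the de-etiolated mutant, and the de-etiolated mutant and Ws did not differ beyond their spread. The signals of AT5G47980 in Ws and the de-etiolated mutant lay below the median signal of their arrays, and the table has no detection call, so whether they were above background is not known.

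AT5G47950 showed no such split by background and was high in the gibberellin-deficient line. Its signal was 144 and 141 in the gibberellin-deficient line, 94.0 and 54.8 in de-etiolated mutant seedlings, 62.4 and 47.4 in Ws, and 56.2 and 46.9 in Ler. Both arrays of the gibberellin-deficient line lay above all 6 other arrays. The arrays of the de-etiolated mutant, Ws and Ler overlapped one another.

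The mean signal of AT5G47950 was 142.5 ± 2.63 in the gibberellin-deficient line, 74.4 ± 27.7 in the de-etiolated mutant, 54.9 ± 10.6 in Ws and 51.6 ± 6.58 in Ler (SD, n = 2 each). The gibberellin-deficient line had 2.76 times the mean signal of Ler, a log2 difference of 1.42 (SE 0.24). The log2 difference between the de-etiolated mutant and Ler was 0.46 (SE 0.24), that between the de-etiolated mutant and Ws 0.38 (SE 0.24), and that between Ws and Ler 0.08 (SE 0.24). The replicates of the de-etiolated mutant were the farthest apart of any group for this gene, replicate 1 having 1.72 times the signal of replicate 2. Without replicate 1 of the de-etiolated mutant its difference from Ws was 0.01 and that from Ler 0.09, and without its replicate 2 they were 0.76 and 0.84. In order of level, the gibberellin-deficient line stood first, and the de-etiolated mutant, Ws and Ler did not differ beyond their spread.

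**Figure D1:**
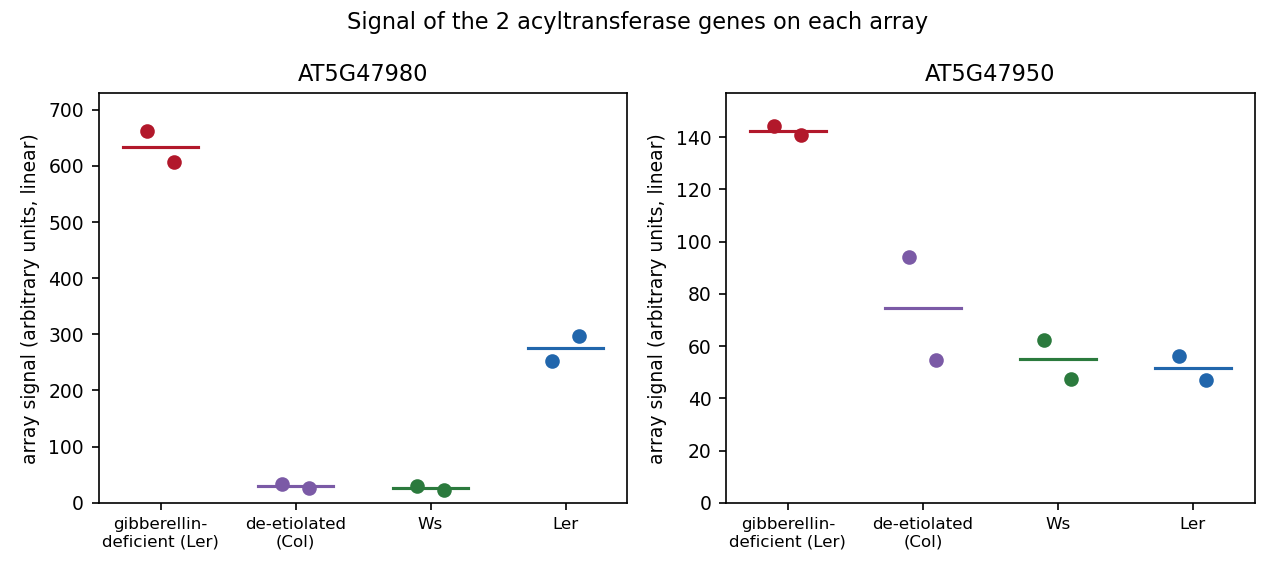
Array signal (linear scale, arbitrary units) of AT5G47980 and AT5G47950 in the 4 groups. Points are single arrays and lines are means of 2 arrays. AT5G47980 is at 253 or above on all arrays of the Ler background and at 32.7 or below on the others, while AT5G47950 is at 141 or above only on the arrays of the gibberellin-deficient line.

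The acyltransferase genes thus shared the direction of their difference between the gibberellin-deficient line and Ler, with log2 values of 1.20 for AT5G47980 and 1.42 for AT5G47950, and did not share the difference between Ws and Ler, with -3.25 and 0.08. Over all 13648 probe sets tested, the median log2 difference was 0.01 between the gibberellin-deficient line and Ler, and -0.02 between Ws and Ler. Both acyltransferase genes were at least 2-fold higher in the gibberellin-deficient line than in Ler with no overlap of arrays, as were 1.33% of the probe sets tested. AT5G47980 was at least 2-fold lower without overlap in Ws than in Ler, as were 1.84% of them, and in the de-etiolated mutant than in Ler, as were 3.15%. These shares describe the arrays and are no test of genes that were chosen with such values known. The share of probe sets with a split by background, as described here for AT5G47980 and below for other genes, was not counted. Nor was that with the gibberellin-deficient line above all other arrays, so how common these patterns are is not known. The arrays are of whole seedlings, so the tissue that gave the signal is not known. More root tissue and more transcript per cell cannot be told apart. EXPA18 had a log2 difference of 0.36 between the gibberellin-deficient line and Ler (limma, adjusted p = 0.27) and EXPA7 one of -0.21 (adjusted p = 0.61), and the part of root tissue in the differences of the acyltransferase genes was not tested.

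Other genes assigned to thalianol modification were scarcely measured. Besides the acyltransferases, 2 of the 5 genes on the pathway list had a probe set of their own, AT1G66800 and AT3G29260, which lie outside the cluster on chromosomes 1 and 3. AT1G66800 had a signal of 31.3 and 72.8 in the gibberellin-deficient line, 20.4 and 17.8 in de-etiolated mutant seedlings, 38.6 and 39.0 in Ws, and 52.2 and 69.1 in Ler. It was lower in the de-etiolated mutant than in Ler, with a log2 difference of -1.52 (SE 0.32, limma, adjusted p = 0.0079), a call lost without Ler replicate 2 (adjusted p = 0.077). Its differences between the gibberellin-deficient line and Ler (-0.31, adjusted p = 0.60), between the de-etiolated mutant and Ws (-0.93, adjusted p = 0.16) and between Ws and Ler (-0.59, adjusted p = 0.37) did not pass the test. The signals of AT1G66800 in the de-etiolated mutant lay below the median signal of those arrays, so the size of its difference from Ler is uncertain. AT3G29260 had a signal of 1.9 to 15.8 over the 8 arrays and was left out by the filter on low values.

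None of the 10 tested genes around the acyltransferases on chromosome 5 was called between the gibberellin-deficient line and Ler, where 10.7% of all probe sets were. In the gene order of the reference, RABA4C and AT5G47970 lie between AT5G47950 and AT5G47980, and only AT5G47970 had a probe set of its own. AT5G47970 had a signal of 33.2 and 22.8 in the gibberellin-deficient line, 33.9 and 30.2 in de-etiolated mutant seedlings, 35.8 and 43.1 in Ws, and 43.6 and 52.0 in Ler. Its log2 difference between the gibberellin-deficient line and Ler was -0.73 (SE 0.24, adjusted p = 0.078), opposite in sign to those of both acyltransferase genes. None of its differences in the other 3 comparisons passed the test, with adjusted p of 0.16 to 0.64. AT5G47940, the measured gene next before AT5G47950 in locus order, had a signal of 15.1 to 28.1 over the 8 arrays and was left out by the filter.

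Of the 21 measured neighbours from AT5G47730 to AT5G48200, which are the 10 nearest measured genes on each side of each acyltransferase gene, 10 passed the filter on low values. Over all probe sets tested, 10.7% were called between the gibberellin-deficient line and Ler, and limma called none of these 10, although 2 had an unadjusted p below 0.05. Their median log2 difference was 0.05, within a range of -0.73 to 0.67. None was called between the de-etiolated mutant and Ws either, where the share over all probe sets was 2.24% and 0 of the 10 had an unadjusted p below 0.05.

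Past the distal end of the cluster, 2 of the 10 neighbours were lower in the de-etiolated mutant, and also in Ws, than in Ler, the direction that AT5G47980 also had. Among them, AT5G48110 passed the filter on low values only through the arrays of the Ler background, where it was high. The count of 2 is therefore partly set by the filter. The shares of lower calls over all probe sets tested were 3.11% for Ws and 8.03% for the de-etiolated mutant, and none of the 10 was called higher, where 1 higher difference had an unadjusted p below 0.05 for the de-etiolated mutant and 0 for Ws. Over all 13648 probe sets tested, 7.83% were called higher in the de-etiolated mutant than in Ler, and 370 in Ws than in Ler. AT5G48020, which follows THAS1 in gene order, had a signal of 108 and 115 in the gibberellin-deficient line, 65.0 and 63.0 in de-etiolated mutant seedlings, 65.7 and 68.9 in Ws, and 106 and 113 in Ler. The arrays of the Ler background again lay above all others, by less than for AT5G47980. Its log2 difference was -0.68 between Ws and Ler (SE 0.16, limma, adjusted p = 0.028), -0.75 between the de-etiolated mutant and Ler (adjusted p = 0.0084), and 0.03 between the gibberellin-deficient line and Ler (adjusted p = 0.94). The call between Ws and Ler was lost without any 1 array of these groups (adjusted p up to 0.155) and in a fit of these groups alone (adjusted p = 0.056), and that of the de-etiolated mutant without Ler replicate 2 (adjusted p = 0.065).

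AT5G48110, farther along the chromosome, had a signal of 64.8 and 79.9 in the gibberellin-deficient line, 14.3 and 15.8 in de-etiolated mutant seedlings, 11.2 and 18.4 in Ws, and 39.2 and 63.5 in Ler. It too was higher on all arrays of the Ler background than on the others. Its log2 difference was -1.61 between Ws and Ler (SE 0.29, limma, adjusted p = 0.0068) and -1.56 between the de-etiolated mutant and Ler (adjusted p = 0.0041), and that between the gibberellin-deficient line and Ler did not pass the test (0.50, adjusted p = 0.31). Without Ler replicate 2 the calls of AT5G48110 were lost in Ws (adjusted p = 0.085) and for the de-etiolated mutant (0.059), and without Ws replicate 1 that in Ws (0.065). The signals of AT5G48110 in Ws and the de-etiolated mutant also lay below the median signal of their arrays, so whether they were above background is not known either, and the sizes of these differences are uncertain. AT5G47940, which was brighter on each of these arrays, was left out by the filter on mean signal. AT5G48110 thus passed that filter only through the arrays of the Ler background, where it was high. Between AT5G48020 and AT5G48110 only XTH20 was tested, and it was not called. Its differences were of the opposite sign, with 0.93 between the de-etiolated mutant and Ler (limma, adjusted p = 0.059) and 0.65 between Ws and Ler (adjusted p = 0.29).

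**Figure D2:**
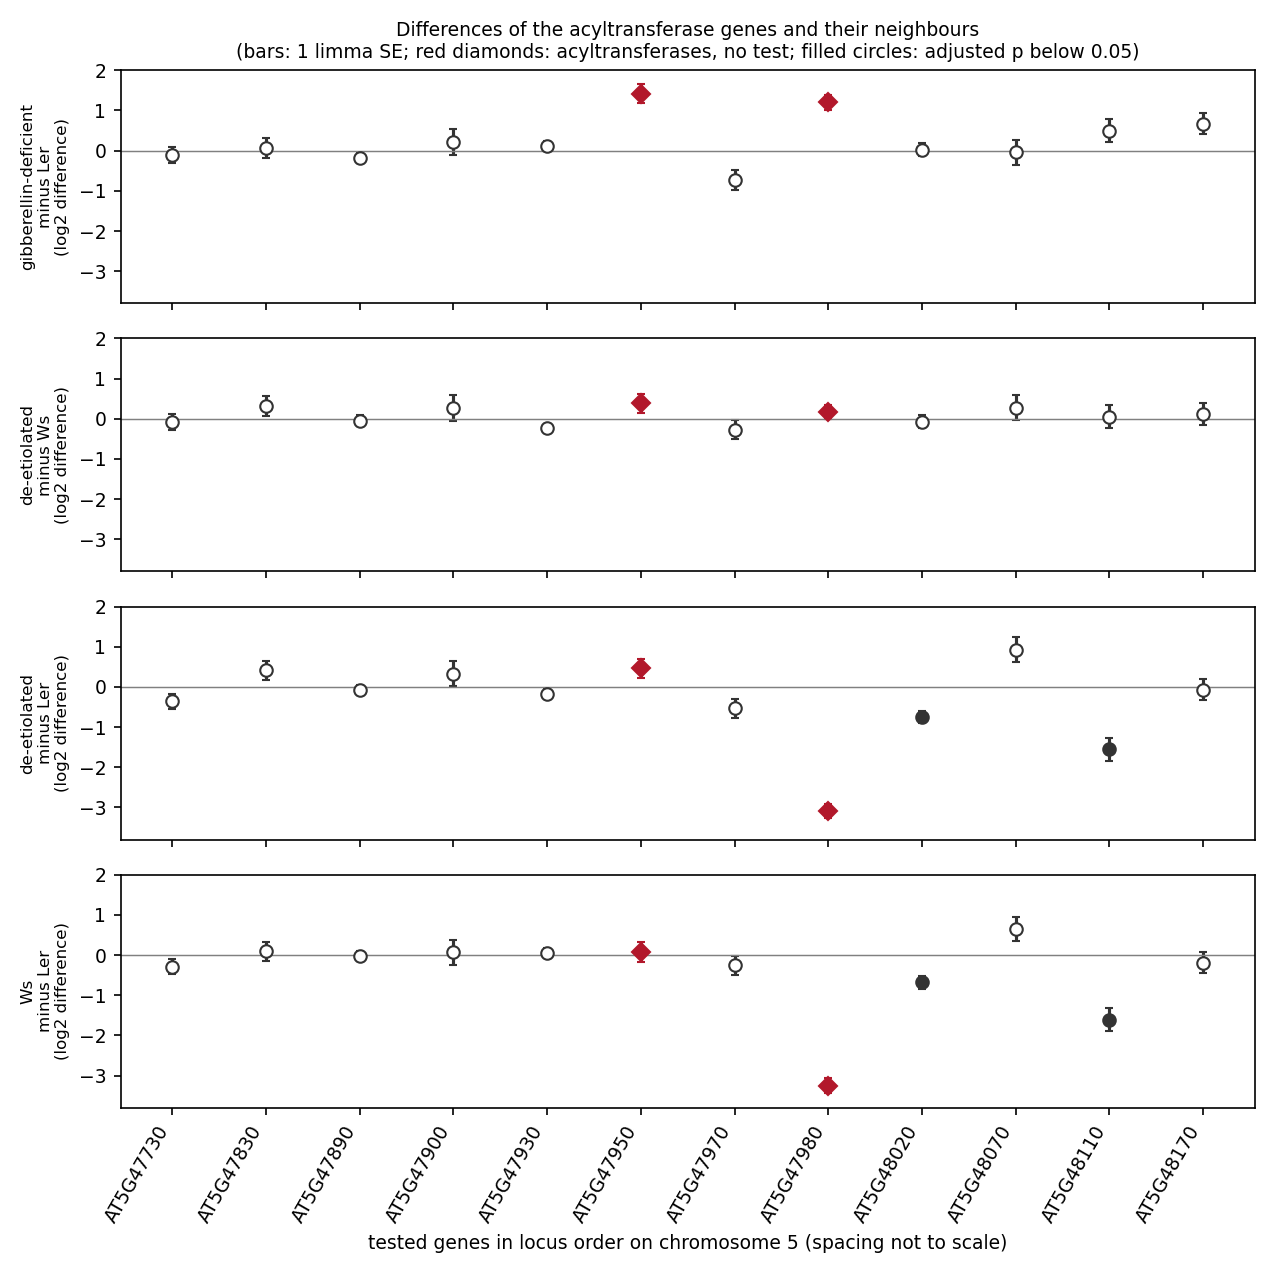
Log2 differences with 1 limma SE of the 12 tested genes from AT5G47730 to AT5G48170, in locus order, for each of the 4 comparisons. Red diamonds are the acyltransferase genes, given without a test, filled circles are neighbours with an adjusted p below 0.05, and open circles are the rest. In the comparison of the gibberellin-deficient line with Ler the acyltransferase genes stand at 1.42 and 1.20 and every neighbour between -0.73 and 0.67. In Ws and the de-etiolated mutant against Ler, the neighbours called lower are AT5G48020 and AT5G48110. AT5G48110 passed the filter on low values only through the arrays of the Ler background, where it was high.

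The wider BAHD family was examined with 56 further listed genes, of which 42 had a probe set of their own and 20 passed the filter. The other 22 had signals of 0.3 to 40.4 over all arrays and were not tested. Members of this family act on many acceptors, among them precursors of lignin, anthocyanins, waxes and suberin.

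Between the gibberellin-deficient line and Ler, 2 of the 20 tested family genes were higher and 2 lower, where 4.55% of all probe sets tested were called higher and 6.18% lower. The family's median log2 difference was 0.11, against 0.01 over all probe sets. AT4G15390 had a signal of 572 and 630 in the gibberellin-deficient line, 255 and 237 in de-etiolated mutant seedlings, 440.5 and 358 in Ws, and 269 and 230.2 in Ler. It rose by a log2 difference of 1.26 in the gibberellin-deficient line against Ler (SE 0.15, limma, adjusted p = 0.00051). This call held under all 15 alternatives, with adjusted p up to 0.0096. AT4G15390 was listed with the arabidiol and baruol gene clusters, which also make root triterpenes, and was the 1 measured gene of 13 on the list of other root triterpene clusters. Beside its log2 difference of 1.26 stand 1.20 for AT5G47980 and 1.42 for AT5G47950 in the same comparison.

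In the other comparisons AT4G15390 had values unlike those of AT5G47980. It was higher in Ws than in Ler (0.67, SE 0.15, limma, adjusted p = 0.021), lower in the de-etiolated mutant than in Ws (-0.69, adjusted p = 0.035), and did not pass the test between the de-etiolated mutant and Ler (-0.02, adjusted p = 0.96). The call between Ws and Ler was lost without Ws replicate 1 (adjusted p = 0.18) or Ler replicate 2 (0.145), without the mean-variance trend (0.065) and in a fit of the compared groups alone (0.054). That between the de-etiolated mutant and Ws was lost without any 1 array of the gibberellin-deficient line, the de-etiolated mutant or Ws (adjusted p up to 0.16), with no filter (0.069), without the trend (0.11) and in a fit of these groups alone (0.092).

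AT1G24430 also rose in the gibberellin-deficient line, with a signal of 78.4 and 71.0 there against 37.9 and 41.1 in Ler, a log2 difference of 0.87 (SE 0.22, limma, adjusted p = 0.024). AT2G39980 fell, with 54.2 and 57.0 in the gibberellin-deficient line against 174 and 165 in Ler, a log2 difference of -1.55 (SE 0.32, adjusted p = 0.011). AT4G13840, or CER26, which acts in the lengthening of wax precursors, fell as well, with 25.0 and 18.8 in the gibberellin-deficient line against 54.9 and 48.0 in Ler and a log2 difference of -1.14 (SE 0.29, adjusted p = 0.026). The signals of AT4G13840 in the gibberellin-deficient line lay below the median signal of those arrays, so the size of its difference is uncertain. The arrays of the compared groups did not overlap for any of these genes. That adds little to calls drawn from the same values, and its share over all probe sets was not counted. The calls of AT1G24430 (adjusted p up to 0.16) and AT4G13840 (up to 0.15) were lost without any 1 array of the compared groups and with no filter on low values, and that of AT2G39980 (up to 0.077) without either array of the gibberellin-deficient line or without Ler replicate 1.

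Against Ler, the de-etiolated mutant had 3 of the 20 family genes higher and 2 lower, where 7.83% and 8.03% of all probe sets tested were called. AT5G39080 (1.11, SE 0.18, limma, adjusted p = 0.0017), AT3G50270 (0.70, adjusted p = 0.016) and HCT, an enzyme of lignin precursor synthesis (0.65, adjusted p = 0.011), were higher. AT5MAT, which adds malonyl groups to anthocyanins (-2.01, SE 0.30, adjusted p = 0.0011), and FACT, a fatty alcohol caffeoyl transferase (-1.02, adjusted p = 0.039), were lower. AT5MAT had a signal of 14.8 and 10.5 in the de-etiolated mutant against 41.15 and 85.3 in Ler. The signals of AT5MAT and FACT in the de-etiolated mutant lay below the median signal of those arrays. Whether they were above background is not known, and the sizes of these differences are uncertain. FACT had a signal of 16.9 and 33.1 in the de-etiolated mutant against 50.04 and 52.5 in Ler, and without replicate 1 of the de-etiolated mutant its difference was -0.59 (adjusted p = 0.24). The calls of AT3G50270 and HCT were lost without replicate 1 of the de-etiolated mutant (adjusted p = 0.059 and 0.071) or Ler replicate 2 (0.13 and 0.063), that of AT3G50270 without replicate 2 of the de-etiolated mutant (0.057), and that of FACT without either Ler array (0.11 and 0.16), without the filter (0.095) and without the trend (0.060). AT4G15390 was the 1 family gene called between Ws and Ler, where 5.82% of all probe sets were called, and the 1 called between the de-etiolated mutant and Ws, where 2.24% were. Limma called none of the 20 tested family genes lower in Ws than in Ler, where 3.11% of all probe sets tested were. Of the family's lower differences there, 5 had an unadjusted p below 0.05. None was called higher in the de-etiolated mutant than in Ws, where 184 of all 13648 probe sets tested were. Of the family's higher differences there, 7 had an unadjusted p below 0.05. The share of such unadjusted p over all probe sets was not counted, here or for the neighbours above.

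**Figure D3:**
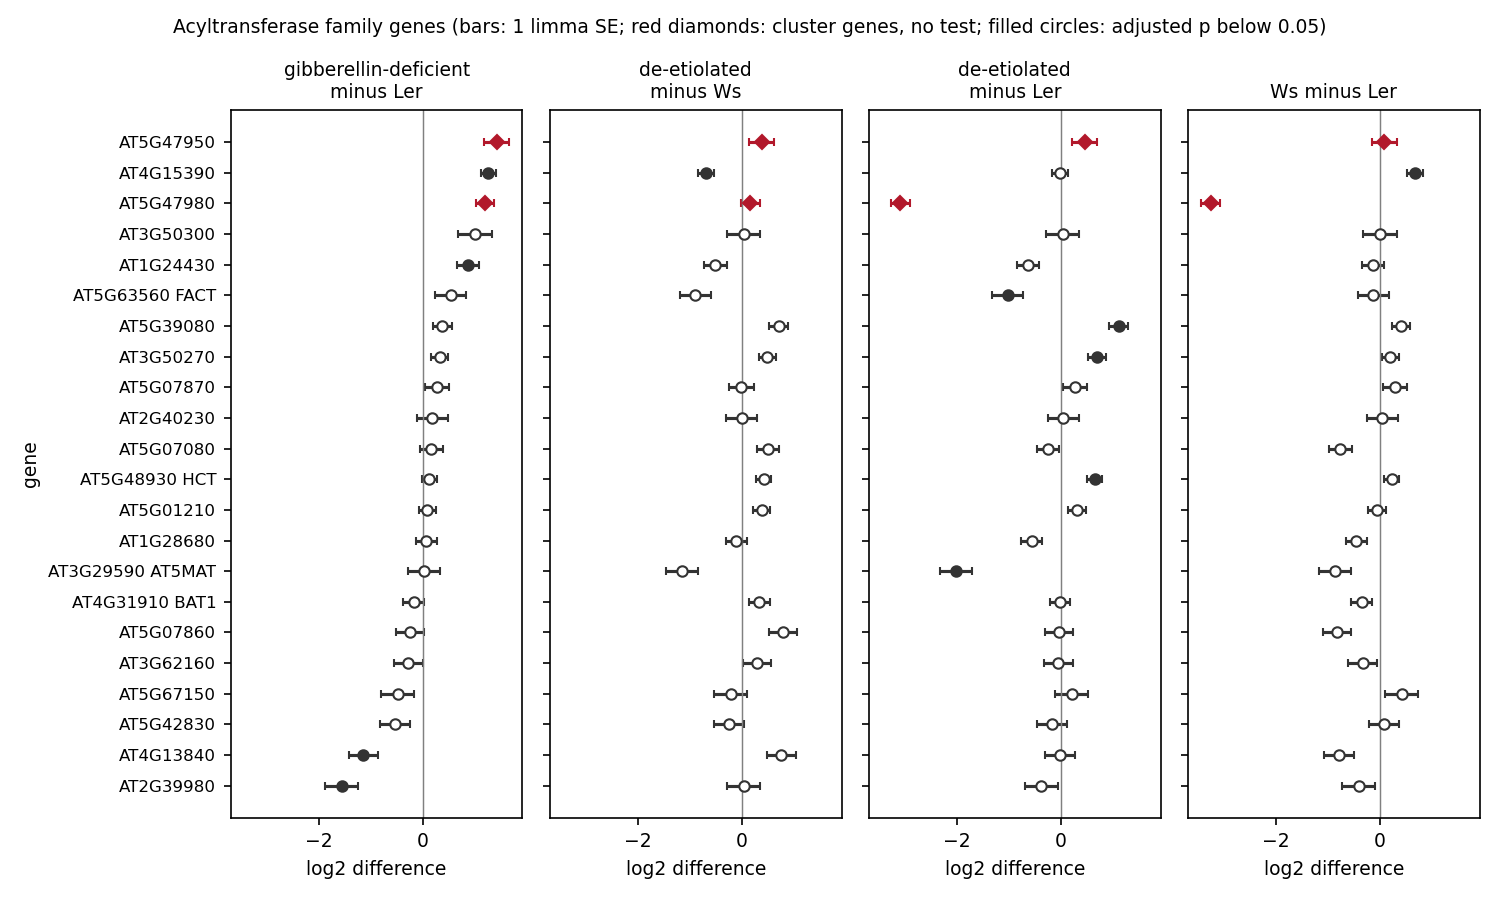
Log2 differences with 1 limma SE of the 20 tested BAHD family genes and the cluster's acyltransferase genes, ordered by the difference between the gibberellin-deficient line and Ler. Red diamonds are AT5G47980 and AT5G47950, given without a test, and filled circles are other family genes with an adjusted p below 0.05. AT4G15390 stands between the diamonds in the comparison of the gibberellin-deficient line with Ler at 1.26, and AT5G47980 is the lowest of the genes shown in Ws and the de-etiolated mutant against Ler.

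Upstream of thalianol, 1 of 17 listed genes of the mevalonate and squalene pathways had a probe set of its own, AT1G31910. Its signal was 108 and 124 in the gibberellin-deficient line, 421 and 526 in de-etiolated mutant seedlings, 554 and 632 in Ws, and 170 and 150.4 in Ler. The split ran by background, as for AT5G47980, but in the opposite direction, with the Ler background low. Its log2 difference was 1.87 between Ws and Ler (SE 0.16, limma, adjusted p = 1.92e-05) and 1.54 between the de-etiolated mutant and Ler (adjusted p = 6.57e-05), and that between the gibberellin-deficient line and Ler did not pass the test (-0.46, adjusted p = 0.085). Of 7 listed oxidosqualene cyclases other than THAS1, only LUP5 was measured, at 2.3 to 13.6 over the 8 arrays, and it was not tested.

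The genes whose values followed each acyltransferase gene most closely were ranked by Pearson correlation of log2 values over the 8 arrays, among 7256 genes. The 8 arrays fall into 4 groups, so such a correlation mostly restates differences between groups, and no p is given. The 5 genes most like AT5G47980 were AT5G01350 (r = 0.992), ACT11, which codes for an actin (0.991), ALN, which codes for allantoinase, an enzyme of purine breakdown (0.991), AT2G21045 (0.990) and AT3G01930 (0.987). Of these, AT2G21045 came closest in size, with a signal of 372 and 542 in the gibberellin-deficient line, 22.1 and 25.3 in de-etiolated mutant seedlings, 34.5 and 22.5 in Ws, and 233 and 242 in Ler. The other 4 were also highest in the gibberellin-deficient line, next in Ler and low in both others, over a smaller range, as for ACT11, with means of 197 in the gibberellin-deficient line, 67.6 in the de-etiolated mutant, 62.5 in Ws and 149 in Ler. Limma called none of these 4 between the gibberellin-deficient line and Ler, where their log2 differences were 0.33 to 0.57. The ranking by correlation itself favours genes with this order of groups.

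The 5 genes most like AT5G47950 were UGT71C1, a glycosyltransferase of small molecules (r = 0.978), AT4G27250 (0.975), AT1G08180 (0.973), AT5G43150 (0.973) and AT3G27770 (0.972). UGT71C1 had a signal of 185 and 172 in the gibberellin-deficient line, 97.7 and 60.1 in de-etiolated mutant seedlings, 78.5 and 63.6 in Ws, and 71.7 and 65.7 in Ler. As for AT5G47950, replicate 1 of the de-etiolated mutant lay well above its replicate 2, a likeness that the ranking over these same arrays favours. Of these 5 genes, limma did not call AT4G27250 and AT1G08180 between the gibberellin-deficient line and Ler, with log2 differences of 0.59 and 0.44. The signal of AT1G08180 lay below the median signal of every array. No gene stood on both lists of 5.

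**Figure D4:**
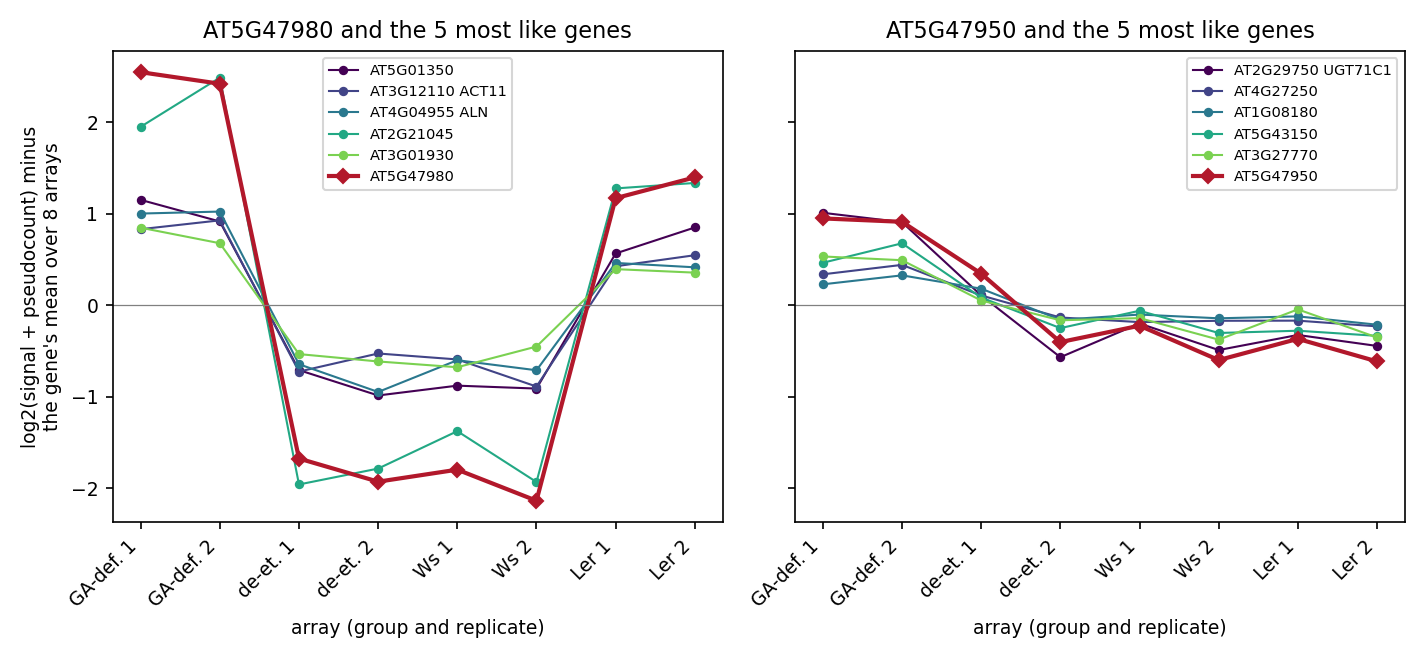
Log2(signal + 2.96) on each of the 8 arrays, minus the gene's mean over the arrays, for each acyltransferase gene (red) and the 5 genes with the highest correlation to it. The genes beside AT5G47980 are high on the 4 arrays of the Ler background, with AT2G21045 covering a range like its own. Those beside AT5G47950 are highest on the arrays of the gibberellin-deficient line, by little for AT1G08180.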

How the data were processed

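The authors deposited a table of signal intensity with 1 value for each probe set on each array. It was produced with MAS5, per the submitters' processing notes, whose settings are not given in the sources used here. The 2%-trimmed mean was 100.01 on every array, which shows a common scaling. Genes were named from the annotation of the array, which gives 1 gene for 13513 probe sets, several for 503 and none for 8730 besides 64 controls. Of the 1-gene probe sets 13436 were matched by gene ID to the RefSeq gene table (TAIR10.1), used for names and gene order.

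Values were analysed as log2(signal + 2.96), where 2.96 is 10% of the median, 29.6, over 1-gene probe sets. Controls and the dimmest 40% of probe sets (by mean log2 signal) were left out, which left 13648 for testing. A single limma model (lmFit, contrasts.fit, eBayes with a mean-variance trend) held all 4 groups, with 4 residual degrees of freedom and a prior of 8. P-values are two-sided, with Benjamini-Hochberg adjustment over all probe sets tested and a threshold of 0.05. The number of arrays limits the precision. The labels do not say whether arrays of a group are of separate cultures, and p-values then measure only the spread between these samples, which may be technical.

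The members and lists were chosen with earlier results of these data known. Named were all measured genes of the pathway, interval and root triterpene lists, called family and neighbour genes up to 6 per comparison, and the 5 genes most like each acyltransferase gene. AT1G31910, RABA4C and LUP5 and the marker genes come from the other lists, and XTH20 was named as the tested gene between called neighbours. A gene with several probe sets was represented by that with the highest mean. A list of 21 light-harvesting genes, added after the annotation was read, had 3 measured members. Of these, LHCB4.2 was called higher in the de-etiolated mutant than in Ler (log2 difference 0.76, limma, adjusted p = 0.0062) and 2 were not called. Over all probe sets tested, 7.83% were called higher in this comparison, and the stability of the LHCB4.2 call was not examined. No sequence was available for use, so the planned promoter search was not run. Whether the probes match the sequences of Ler, Ws and Col equally was not examined either, so differences between backgrounds are differences of signal. Alternatives covered normalization, pseudocount, filter, trend, samples in the fit, cross-hybridising probe sets, leaving out each array and a replicate block. The fit was tested on simulated data. The tools were limma 3.58.1 in R 4.3.3, and pandas 2.3.3, numpy 2.4.6, scipy 1.17.1 and matplotlib 3.10.9 in Python 3.11.15.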

Additional observations from a re-analysis of the deposited data

How the results depend on the processing

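The differences of the acyltransferase genes moved by less than the spread between replicates (the pooled SD of log2 values in the compared groups) with quantile normalization. The replicate block cannot change them, because every group holds an array of each replicate letter. With a larger pseudocount (50% of the median), AT5G47980 differed by -2.70 between the de-etiolated mutant and Ler and by -2.82 between Ws and Ler, and AT5G47950 by 1.25 between the gibberellin-deficient line and Ler, all smaller in size. When single arrays were left out, AT5G47980 ranged from 1.09 to 1.31 between the gibberellin-deficient line and Ler, from -3.21 to -2.96 between the de-etiolated mutant and Ler, from -3.42 to -3.08 between Ws and Ler and from -0.01 to 0.33 between the de-etiolated mutant and Ws. AT5G47950 ranged from 1.2975 to 1.54, from 0.09 to 0.84, from -0.11 to 0.27 and from 0.01 to 0.76 in the same comparisons.

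Counts of called probe sets were 1464 between the gibberellin-deficient line and Ler (440 to 1606 when single arrays were left out), 306 between the de-etiolated mutant and Ws (77 to 367), 2164 between the de-etiolated mutant and Ler (937 to 2057) and 794 between Ws and Ler (340 to 843). Between the gibberellin-deficient line and Ler the count was 440 and 550 without replicates 1 and 2 of the gibberellin-deficient line, and 528 and 855 without those of Ler. Between the de-etiolated mutant and Ws it was 115 without replicate 1 of the de-etiolated mutant, and 181 and 77 without Ws replicates 1 and 2. Between the de-etiolated mutant and Ler it was 1374 without replicate 1 of the de-etiolated mutant and 937 without Ler replicate 2, and between Ws and Ler 340 and 484 without the Ws replicates and 462 and 389 without those of Ler. Leaving out an array of a compared group leaves that group 1 array, which is then assumed to vary like the other groups. Between the de-etiolated mutant and Ws the count was also 135 with no filter, 115 without the trend and 162 in a fit of these groups alone, and the cause was not tested. Of the 18 calls given for pathway, neighbour and family genes and AT1G31910, 5 held under all alternatives. The other 13 were lost under at least 1. None changed direction, but most alternatives leave the difference itself unchanged and so could not reverse it.

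The replicate letters of the titles are not said to mark shared batches, and arrays of the same letter deviated together only weakly (correlations of 0.026 to 0.101 between groups). With the replicate block 1579, 430, 2310 and 882 probe sets were called in the 4 comparisons. The table gives no detection call, so the lower bound of the signals of AT5G47980 in Ws and the de-etiolated mutant is not known.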
